A study of Mus musculus with 46 samples.

Results

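The spinalis, a muscle of the back, was compared between 5 female *Actn3* knockout (KO) mice and 5 female wild-type (WT) mice that carried empty implants. These 10 RNA sequencing libraries, KO-empty and WT-empty, were taken by their column names from 22 spinalis libraries, within a series of 46 labelled samples of which 45 have a column of counts. All 10 mice were C57BL6 females, were given a 1 cm length of silastic tubing without hormone between the scapulae when 4 to 5 weeks old, and kept it for 6 weeks. Other spinalis libraries came from females of the same age and strain whose implants held 10 mg of dihydrotestosterone (DHT), 6 WT-DHT and 6 KO-DHT. A separate table holds gastrocnemius of male C57BL6 mice sham-operated when 8 to 10 weeks old, with muscle taken after 12 weeks, 6 WT-sham and 6 KO-sham. The study asked how *Actn3* genotype shapes the response of muscle to androgens, and the empty implants give the genotype difference without added hormone.

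α-Actinins cross-link the actin filaments of neighboring sarcomeres at the Z-disc and bind structural, signaling and metabolic proteins there. Fast glycolytic fibers hold both sarcomeric isoforms, and slow fibers hold α-actinin-2 alone. Muscle without α-actinin-3 is known for more α-actinin-2, slower contractile properties and a more oxidative metabolism.

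Total counts on genes were between 37.3 M and 51.2 M per WT-empty library and between 42.5 M and 47.8 M per KO-empty library, with means of 45.0 M and 44.9 M (exact two-sided permutation test, p = 0.976, adjusted p = 0.976 over 16 values tested). Expression is given in CPM, the counts of a gene scaled to a common library total after TMM scaling between libraries, and values of single libraries are listed in a fixed order, 14KR, 4KR, 7KR, 35KR and 49KR for WT-empty and 17KR, 33KR, 64KR, 61KR and 62KR for KO-empty. These codes come from the count table, and no label states their meaning. Log2 fold changes are KO over WT, SE is the standard error of a log2 fold change, and q is the Benjamini-Hochberg adjusted result of the quasi-likelihood F test in edgeR, taken over all 16987 genes, with genes called at q ≤ 0.01.

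*Actn3* was measured at 9641, 9812, 9946, 8592 and 10350 CPM in the WT-empty libraries and at 67.5, 83.2, 78.4, 56.6 and 62.1 CPM in the KO-empty libraries. Each library thus matched its genotype label, and a residual signal was present in every KO-empty library. The difference was the largest fold decrease among all genes tested (log2 fold change -7.12, SE 0.12, q = 8.45e-23). *Xist*, transcribed from the inactive X chromosome of females, was present at 113 to 143 CPM in WT-empty and 104 to 138 CPM in KO-empty, and none of the 4 Y-linked genes listed as a check was among the genes of the table, as for female mice. Transcripts of skeletal muscle fibers were abundant in every library, with 10 of 10 listed markers measured, *Myh4* the most abundant and none at 0. Nothing in these lists separates the spinalis from other fast muscles.

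A single library stood apart from the other 9. The KO-empty library 61KR had a mean correlation of 0.980 with the other KO-empty libraries (log2 CPM over all genes), against 0.986 to 0.988 for the other KO-empty and 0.988 to 0.990 for the WT-empty libraries. In it, 86 genes lay more than 3-fold above all 4 other KO-empty libraries, whereas the other 9 libraries had between 0 and 3 such genes. Of the 86, 8 were among the genes called between the genotypes (9.3%, against 4.25% of all genes). A second KO-empty library, 17KR, shared with 61KR a high level of neutrophil granule transcripts. Gene groups that rest on these libraries are given with and without them, and single genes whose call was lost without both are listed with the counts of called genes.

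KO-empty and WT-empty differed in 722 of 16987 genes (4.25% of those tested). Expression was higher without *Actn3* in 298 of these genes (1.75%) and lower in 424 (2.50%). Most differences were moderate, with a median absolute log2 fold change of 0.525 among called genes. Only 153 of them changed by at least 1 on the log2 scale, 82 upward and 71 downward. Without regard to the test, all 5 KO-empty libraries lay above all 5 WT-empty libraries in 502 genes (2.96%) and below them in 648 genes (3.81%), and 591 of the called genes were among these. The median log2 fold change over all genes was 0.0126.

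**Figure D1:**
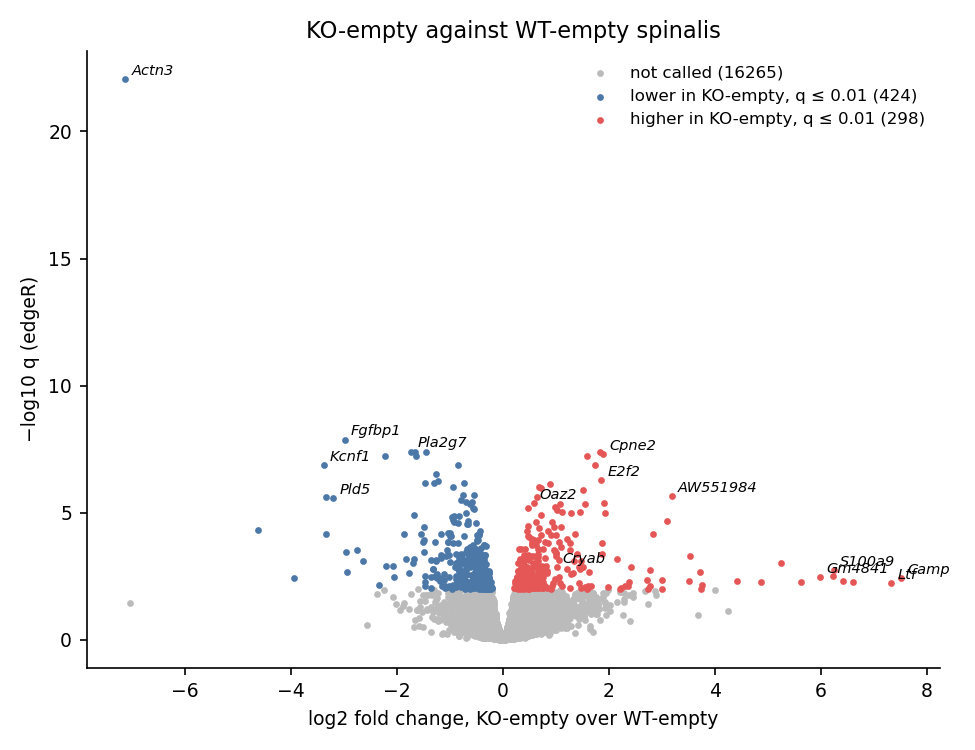
Log2 fold change of KO-empty over WT-empty spinalis (x axis) against −log10 of the edgeR q (y axis) for the 16987 genes tested, 1 point per gene. *Actn3* stands alone at a log2 fold change of -7.12, 298 genes in red were higher and 424 in blue lower in KO-empty at q ≤ 0.01, and several neutrophil and interferon-inducible genes lie at the right with large fold changes and q near the threshold.

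The number of called genes differed with the libraries in the fit. Without 61KR, 538 genes were called, 498 of them among the 722. Leaving out 61KR and 17KR together, an alternative chosen after seeing the data, gave 408 genes with 381 shared. The count was 450 without WT-empty 7KR, 453 without KO-empty 64KR and 481 without WT-empty 4KR, so the fall came with libraries of either genotype. A fit of the 2 groups alone, with 10 instead of 22 libraries and the filter applied anew (16770 genes tested), called 289 genes, 281 of them shared. With library-size scaling in place of TMM, 52.9% of 533 called genes were higher in KO-empty, against 41.3% with TMM.

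Single named genes lost their call with these choices as well, apart from the neutrophil and interferon-inducible genes given with their lists. Without 17KR and 61KR together this held, with q in brackets, for *Spns2* (0.0113), *AC103597.1* (0.0124), *Smox* (0.0213), *Rpl4* (0.0232), *Lrp4* (0.0115), *Slc2a4* (0.0278), *Rpsa* (0.0361), *Slc25a25* (0.0244), *Rpl7* (0.028), *Rps3a2* (0.0201), *Ttll7* (0.0174), *Rpl8* (0.0515), *Tnnc2* (0.0354), *Tnnt3* (0.06302), *AC154912.5* (0.0422), *Nr3c1* (0.0517), *Ndufs1* (0.0147), *Ppp1r3d* (0.0554) and *Mrpl30* (0.0773). In the fit of the 2 groups alone it held for *Dlst* (0.0102), *Rps20* (0.0134), *Musk* (0.0174), *Itga7* (0.0161), *Acads* (0.02698), *Rpl4* (0.03598), *Slc2a4* (0.0352), *Actn2* (0.0104), *Rpsa* (0.0418), *Fkbp5* (0.0149), *Rpl7* (0.0257), *Hspb3* (0.0187), *Sms* (0.0304), *Ldb3* (0.0338), *Rps3a2* (0.0149), *H19* (0.0368), *Rpl8* (0.0437), *Tnnc2* (0.0545), *Tnnt3* (0.0212), *AC154912.5* (0.0314), *Nr3c1* (0.0729), *Ndufs1* (0.0466), *Psmd8* (0.0348), *Cry2* (0.0261), *Pdhb* (0.0658) and *Mrpl30* (0.0776). With library-size scaling it held for *Rpl4* (0.0544), *Rpsa* (0.0153), *Rpl7* (0.0167), *Hspb3* (0.01598), *Sms* (0.0324), *Rps3a2* (0.0413), *Rpl8* (0.0184), *Tnnc2* (0.0101), *Nr3c1* (0.0296), *Psmd8* (0.0169), *Cry2* (0.0104), *Ppp1r3d* (0.01197), *Pdhb* (0.0106) and *Mrpl30* (0.0683). With limma-voom it held for *Tnnc2* (0.0117), *AC154912.5* (0.04603), *Cry2* (0.0105) and *Mrpl30* (0.0106). All of these kept their direction.

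The 14 genes lower in KO-empty with the smallest p-values had groups without overlap, by the rule that chose them. *Fgfbp1*, which codes for a secreted carrier of fibroblast growth factors, was measured at 16.9, 12.8, 16.9, 17.1 and 11.3 CPM in WT-empty and at 1.16, 2.16, 1.32, 3.06 and 1.75 CPM in KO-empty. Every KO-empty library lay far below every WT-empty library (log2 fold change -2.99, SE 0.22, q = 1.33e-08). *Kcnf1*, a modulatory potassium channel subunit, was at 18.1, 31.9, 15.8, 11.9 and 23.8 CPM in WT-empty and at 3.44, 2.33, 1.66, 1.22 and 1.05 CPM in KO-empty. The highest KO-empty value was below the lowest WT-empty value by more than 3-fold (log2 fold change -3.38, SE 0.31, q = 1.38e-07). *Kcnab1*, the β1 subunit of voltage-gated potassium channels, fell as well (log2 fold change -2.22, SE 0.19, q = 5.91e-08), with 16.4 to 28.7 CPM in WT-empty and 2.96 to 7.29 CPM in KO-empty.

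*Pla2g7* codes for the secreted enzyme that hydrolyzes platelet-activating factor, and was at 22.4, 24.6, 24.2, 22.9 and 25.9 CPM in WT-empty and 7.33, 6.69, 9.06, 7.16 and 6.01 CPM in KO-empty. The libraries of each genotype were close together and the genotypes were apart (log2 fold change -1.73, SE 0.14, q = 3.95e-08). *Hsd17b7*, an enzyme of cholesterol synthesis that also acts on estrone, was lower by a similar amount (log2 fold change -1.66, SE 0.14, q = 3.95e-08). The calcium-sensing receptor *Casr* was at 26.2 to 30.8 CPM in WT-empty and 7.996 to 14.9 CPM in KO-empty (log2 fold change -1.23, SE 0.12, q = 5.70e-07). *Enho*, which encodes the peptide adropin, fell from a mean of 6.72 to 2.43 CPM (log2 fold change -1.47, SE 0.15, q = 6.91e-07). *Sorbs2*, an adaptor protein of Z-discs and the actin cytoskeleton, fell from 49.1 to 20.03 CPM (log2 fold change -1.29, SE 0.13, q = 7.02e-07). Others among the 14 lower genes with the smallest p-values were *Gdap1*, a protein of the outer mitochondrial membrane (log2 fold change -1.26), *Gid4*, a substrate receptor of a ubiquitin ligase (-0.74), *Ybx3*, a cold shock domain protein that binds RNA (-0.85), *Polk*, a translesion DNA polymerase (-0.93), *Phf7* (-1.45) and the unnamed transcript *B230312C02Rik* (-1.64). All of these kept q ≤ 0.01 in each of the 10 fits that left out 1 library.

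Lower genes of low abundance had some of the largest folds. *Pld5*, a member of the phospholipase D family, fell from a range of 3.23 to 4.54 CPM in WT-empty to a range of 0.164 to 0.681 CPM in KO-empty (log2 fold change -3.20, SE 0.36, q = 2.62e-06), and the secreted phospholipase *Pla2g5* fell from a range of 0.971 to 2.53 CPM in WT-empty to a range of 0.0935 to 0.791 CPM in KO-empty (log2 fold change -2.20, SE 0.41, q = 0.00127). *Slc25a25*, a carrier of ATP and magnesium in the inner mitochondrial membrane, was abundant and variable, at 162, 220.1, 82.9, 299.5 and 239 CPM in WT-empty and 58.7, 83.3, 35.1, 25.8 and 38.8 CPM in KO-empty. The groups overlapped in 1 value, the WT-empty library 7KR being just below the KO-empty library 33KR (log2 fold change -2.06, SE 0.43, q = 0.00338). For *Slc25a25*, q was 0.0101 without WT-empty 35KR, 0.0126 without KO-empty 64KR, 0.01002 without KO-empty 61KR and 0.0106 without KO-empty 62KR. The unnamed transcripts *AC103597.1* (log2 fold change -2.63) and *AC154912.5* (-2.33) were also among the 8 largest decreases, both with overlapping groups, and for *AC154912.5* q was between 0.0123 and 0.0316 when 1 of WT-empty 4KR, 35KR and 49KR or KO-empty 17KR, 64KR, 61KR and 62KR was left out.

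The 14 genes higher in KO-empty with the smallest p-values were chosen by the same rule. *E2f2*, a transcription factor of the cell cycle, was at 4.26, 4.198, 4.96, 3.95 and 4.097 CPM in WT-empty and 11.9, 12.7, 12.97, 19.9 and 20.5 CPM in KO-empty. All KO-empty values were more than 2-fold above all WT-empty values (log2 fold change 1.86, SE 0.18, q = 5.17e-07). *Spag5*, which encodes the spindle protein astrin, was at 1.67, 3.03, 3.01, 3.24 and 2.66 CPM in WT-empty and 8.62, 8.12, 7.56, 8.34 and 8.48 CPM in KO-empty. KO-empty libraries were alike and all above WT-empty (log2 fold change 1.59, SE 0.14, q = 5.91e-08). *Ift122*, a subunit of the intraflagellar transport complex A, rose from a range of 8.98 to 12.8 CPM in WT-empty to a range of 31.3 to 46.5 CPM in KO-empty (log2 fold change 1.74, SE 0.16, q = 1.36e-07).

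*Cpne2*, a calcium-dependent phospholipid-binding protein, was at 2.91 to 5.07 CPM in WT-empty and 11.96 to 16.6 CPM in KO-empty (log2 fold change 1.89, SE 0.16, q = 4.85e-08). *Dupd1*, a dual specificity phosphatase of muscle, rose by 1.52 on the log2 scale (SE 0.16, q = 1.32e-06). *Serpinb1a*, an inhibitor of neutrophil proteases, rose from a mean of 2.98 to 8.72 CPM (log2 fold change 1.55, SE 0.18, q = 4.55e-06) with values of 8.36, 9.22, 7.72, 10.5 and 7.78 CPM in KO-empty, which were alike in all libraries, 17KR and 61KR included. *AW551984*, without a described function here, had the largest increase among the 14 higher genes with the smallest p-values, from 2.18, 1.21, 2.098, 2.37 and 1.199 CPM in WT-empty to 12.6, 23.4, 19.2, 11.5 and 15.5 CPM in KO-empty. No KO-empty value came near the WT-empty range (log2 fold change 3.19, SE 0.35, q = 2.23e-06). Others of this group were *A930003A15Rik* (log2 fold change 1.83), *Atrnl1* (0.88), *Fsd1l* (0.73), *Acot9*, a mitochondrial acyl-CoA thioesterase (0.65), and *Oaz2* and *Tceal7*, which are described with their lists. In each of the 10 fits that left out 1 library these genes stayed at q ≤ 0.01.

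**Figure D2:**
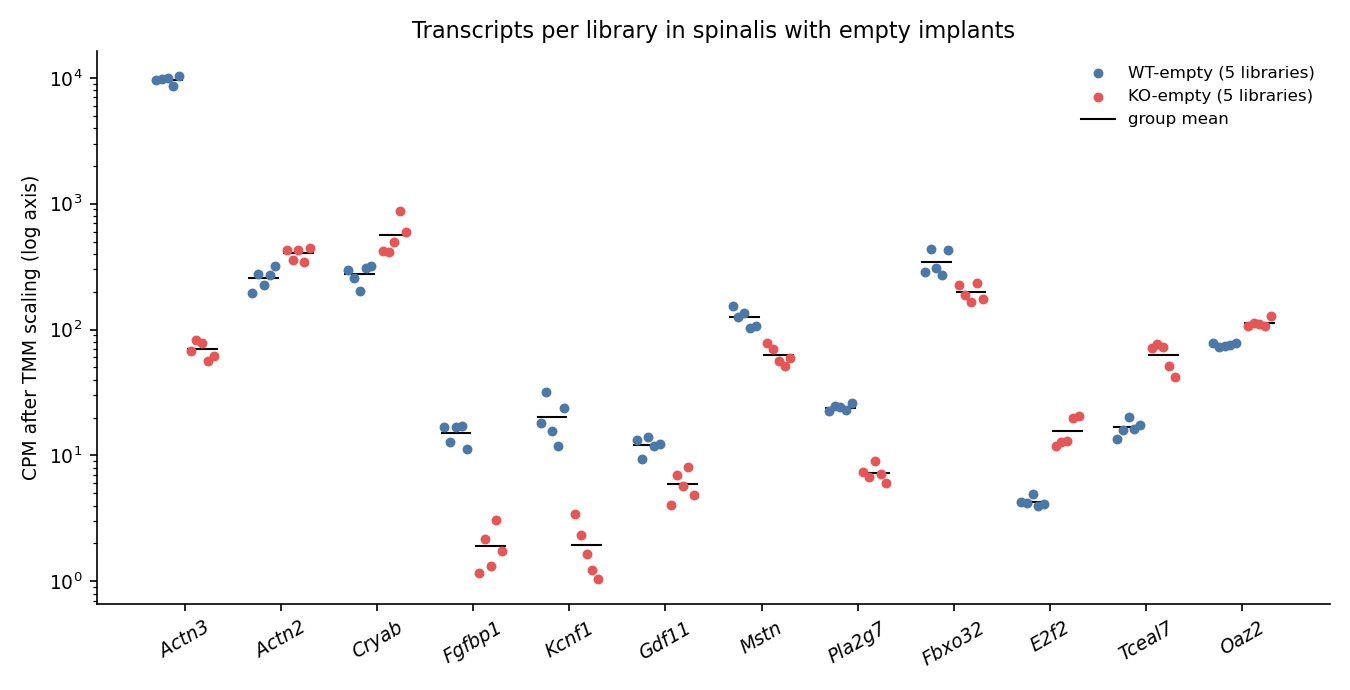
CPM of 12 genes (log y axis) in each of 5 WT-empty (blue) and 5 KO-empty (red) libraries, with group means as black lines. *Actn3* was between 8592 and 10350 CPM in WT-empty and between 56.6 and 83.2 CPM in KO-empty. The 12 were picked from called genes whose groups do not overlap, so their separation is not a result. Over all genes, KO-empty lay fully above WT-empty in 2.96% and fully below in 3.81%. Groups of other called genes, such as *Musk*, *H19* and *Fkbp5*, overlapped.

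Of the 4 α-actinins, 1 rose besides the loss of *Actn3*. *Actn2*, which encodes the isoform that slow and fast fibers share, was at 194, 275, 228, 274 and 321 CPM in WT-empty and 430.0, 359.9, 432, 346 and 443 CPM in KO-empty. Every KO-empty library was above every WT-empty library (log2 fold change 0.64, SE 0.13, q = 0.00306). For *Actn2*, q was 0.01005 without WT-empty 14KR and 0.0112 without WT-empty 7KR, and the fit of the 2 groups alone did not reach the threshold. The non-muscle isoforms *Actn1* (log2 fold change 0.07, q = 0.8297) and *Actn4* (0.19, q = 0.4404) were not called. Even with this rise, the mean of *Actn2* in KO-empty was 402 CPM, against 9669 CPM for *Actn3* in WT-empty. These are counts not divided by transcript length, so the levels of the genes cannot be compared closely.

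Among 24 genes of the Z-disc and partners of α-actinin, all measured, 2 were higher, 1 was lower (12.5% called, against 4.25% of all genes) and 21 were not called, with a median log2 fold change of 0.102 against 0.0126 over all genes. *Cryab*, the small heat shock protein αB-crystallin that protects desmin and other Z-disc proteins, was at 299.8, 255, 204, 309.7 and 322 CPM in WT-empty and 422, 411, 499, 876 and 598 CPM in KO-empty. Each KO-empty value was above all WT-empty values and the highest was in 61KR (log2 fold change 1.01, SE 0.19, q = 0.00133). *Ldb3*, the Z-disc protein cypher or ZASP, rose from a range of 1013 to 1133 CPM in WT-empty to a range of 1155 to 1483 CPM in KO-empty (log2 fold change 0.32, SE 0.07, q = 0.00401), and q was 0.0133 without WT-empty 35KR, 0.0126 without KO-empty 17KR, 0.01204 without KO-empty 33KR and 0.0103 without KO-empty 64KR. *Pdlim7*, a PDZ and LIM domain protein, fell from a range of 166 to 200.4 CPM in WT-empty to a range of 114 to 154 CPM in KO-empty (log2 fold change -0.48, SE 0.07, q = 1.22e-04). *Myot*, which encodes myotilin, had a log2 fold change of 0.21 with q = 0.182. In the list of stretch and stress response genes, *Cryab* was the single called member of 14 (7.14%, against 4.25% of all genes, median log2 fold change 0.311), and 13 of the 14 had positive fold changes, against 8868 of 16987 among all genes.

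Of 12 measured fast contractile genes, 2 were called, both lower (16.7%, against 4.25% called among all genes tested), and 10 were not called. Fold changes were negative in 9, against 8119 of 16987 among all genes, with a median of -0.202. *Tnnt3*, fast troponin T, was at 14450, 16600, 15830, 14060 and 14210 CPM in WT-empty and 11650, 12490, 11400, 10220 and 12440 CPM in KO-empty, without overlap (log2 fold change -0.37, SE 0.08, q = 0.006205), but q was between 0.01096 and 0.0234 when 1 of WT-empty 14KR, 4KR and 7KR or KO-empty 17KR, 64KR and 61KR was left out. *Tnnc2*, fast troponin C, was counted at only 6.96 to 13.9 CPM in WT-empty and 4.41 to 6.93 CPM in KO-empty (log2 fold change -0.71, SE 0.16, q = 0.00608). Its exons overlap those of *Ube2c* on the opposite strand, and for *Tnnc2* q was between 0.0143 and 0.0224 when 1 of WT-empty 14KR and 4KR or KO-empty 17KR, 64KR and 62KR was left out. Fast troponin I, *Tnni2*, was lower in all KO-empty libraries and not called (log2 fold change -0.31, q = 0.0164), and *Mybpc2*, fast myosin-binding protein C, had a log2 fold change of -0.26 (q = 0.0389) with overlap. The most abundant myosin heavy chain, *Myh4* of type 2B fibers, was at 79800, 79040, 89730, 75050 and 82790 CPM in WT-empty and 67840, 79490, 68100, 61310 and 70930 CPM in KO-empty, with overlap and q = 0.0988 (log2 fold change -0.23). Of 8 myosin heavy chains, 0 were called by edgeR, and the chains of other fiber types were not called either, with *Myh1* of type 2X at a log2 fold change of 0.36 (q = 0.185), *Myh2* of type 2A at 0.12 (q = 0.747) and *Myh7* of type 1 at 0.59 (q = 0.581).

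Many slow contractile genes varied widely between mice of one genotype. All 13 had positive fold changes, against 8868 of 16987 among all genes. Their median was 0.532, and 0 of 13 were called, against 4.25% of all genes. *Myl2*, slow regulatory light chain, was at 80.4, 332, 142, 199.7 and 160.2 CPM in WT-empty and 126, 185, 291, 399 and 359 CPM in KO-empty. The WT-empty library 4KR was above 3 of the 5 KO-empty libraries, and WT-empty values alone spanned more than 4-fold (log2 fold change 0.57, q = 0.453). *Tnnt1*, slow troponin T, showed the same order among WT-empty libraries, with 29.98, 196, 67.7, 126 and 81.8 CPM in WT-empty and 77.5, 121, 159, 179 and 197 CPM in KO-empty (q = 0.587). *Atp2a2*, the slow calcium pump SERCA2, did so too (log2 fold change 0.55, q = 0.351). The smallest q of the list were those of *Myl6b* at a log2 fold change of 0.68 (SE 0.22, q = 0.0582), *Casq2* at 0.48 (SE 0.17, q = 0.0785) and *Mybpc1* at 0.47 (SE 0.17, q = 0.0865), and the largest that of *Myoz2* at 0.04 (SE 0.19, q = 0.924). In bulk tissue, fewer cells or fibers of a type and less RNA per cell cannot be told apart.

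Calcium handling showed 2 called genes of 24 (8.33%, against 4.25% of all genes), both lower, and a median log2 fold change of -0.015. *Itpr1*, the inositol trisphosphate receptor of internal stores, was at 75.98, 77.2, 65.9, 83.4 and 77.3 CPM in WT-empty and 51.6, 50.8, 50.95, 54.4 and 47.4 CPM in KO-empty. All KO-empty values were below all WT-empty values (log2 fold change -0.57, SE 0.07, q = 3.80e-06). *Mrln*, which codes for the SERCA-inhibiting micropeptide myoregulin, fell from a range of 48.4 to 64.6 CPM in WT-empty to a range of 34.2 to 43.1 CPM in KO-empty (log2 fold change -0.52, SE 0.10, q = 0.00106). *Sln*, sarcolipin, another inhibitor of SERCA, was at 4.62 to 18.2 CPM in WT-empty and 10.1 to 51.3 CPM in KO-empty and was not called (log2 fold change 1.42, q = 0.0227). None of the 18 measured genes of calcineurin signaling was called by edgeR, with a median log2 fold change of 0.0577, and *Rcan1*, a target and inhibitor of calcineurin, was at 0.14 (q = 0.7095).

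At the neuromuscular junction, 3 of 12 measured genes were called (25.0%, against 4.25% of all genes). *Chrnb1*, the β subunit of the acetylcholine receptor, was at 15.8, 16.4, 15.4, 13.8 and 15.5 CPM in WT-empty and 25.98, 23.9, 23.9, 22.7 and 22.6 CPM in KO-empty, and all KO-empty values were higher (log2 fold change 0.63, SE 0.08, q = 2.35e-05). *Lrp4*, the receptor for agrin, rose (log2 fold change 0.48, SE 0.10, q = 0.00272), and q was 0.0119 without KO-empty 64KR. *Musk*, the kinase that partners with Lrp4, was at 20.5, 25.8, 22.6, 13.3 and 20.6 CPM in WT-empty and 14.1, 13.6, 12.4, 12.6 and 9.49 CPM in KO-empty. The WT-empty library 35KR lay within the KO-empty range and the other 4 above it (log2 fold change -0.72, SE 0.13, q = 7.47e-04). *Musk* was also the single called member of 15 genes of denervation and myogenesis (6.67%, against 4.25% of all genes), and in the fit of the 2 groups alone its q was 0.0174. In the dystrophin complex and costamere, 2 of 18 genes were called (11.1%, against 4.25% of all genes). *Itga7*, the laminin-binding integrin of muscle, rose (log2 fold change 0.33, SE 0.06, q = 8.03e-04), and *Nos1*, neuronal nitric oxide synthase, which is anchored to the complex, fell from a range of 28.3 to 46.8 CPM in WT-empty to a range of 16.1 to 23.1 CPM in KO-empty (log2 fold change -0.85, SE 0.15, q = 8.45e-04). In the fit of the 2 groups alone q of *Itga7* was 0.0161.

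Androgen-related genes that the study names gave 6 called genes of 10 (60%, against 4.25% of all genes), with 1 higher and 5 lower (median log2 fold change -0.554). The list was taken from genes that the study names, with these libraries among its data, so its direction is not independent evidence. *Mstn*, myostatin, the inhibitor of muscle growth, was at 155, 125, 136, 104 and 107 CPM in WT-empty and 77.9, 70.2, 56.3, 50.96 and 59.7 CPM in KO-empty. The groups did not overlap, with means of 125 and 63.03 CPM (log2 fold change -0.99, SE 0.14, q = 8.55e-05). *Fbxo32*, the atrophy-related ubiquitin ligase atrogin-1, was at 289, 439, 307, 269 and 429 CPM in WT-empty and 228, 189, 165, 233 and 175 CPM in KO-empty (log2 fold change -0.81, SE 0.17, q = 0.00276). For *Fbxo32*, q was 0.0125 without WT-empty 4KR, 0.0112 without WT-empty 49KR and 0.0112 without KO-empty 64KR. The other muscle-specific ligase, *Trim63* or MuRF1, had a log2 fold change of -0.40 (q = 0.169), with 1 WT-empty library, 4KR, well above the remaining 9. *Tmem100*, a transmembrane protein, fell from a range of 8.55 to 14.8 CPM in WT-empty to a range of 3.43 to 7.42 CPM in KO-empty (log2 fold change -1.18, SE 0.25, q = 0.00378), and q was 0.0123 without WT-empty 14KR, 0.0111 without KO-empty 33KR and 0.0121 without KO-empty 64KR.

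*Tceal7*, a member of a family of transcription elongation factor-like proteins, was the single gene of the androgen list that rose, at 13.5, 16.04, 20.2, 16.2 and 17.5 CPM in WT-empty and 71.8, 77.4, 72.3, 51.6 and 41.7 CPM in KO-empty. The lowest KO-empty value was about 2-fold above the highest WT-empty value (log2 fold change 1.92, SE 0.22, q = 4.30e-06). *Mybph*, myosin-binding protein H, was not called (log2 fold change 0.42, q = 0.177).

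Polyamine metabolism had 4 called genes among 15 measured (26.7%, against 4.25% of all genes), 2 in each direction (median log2 fold change -0.00175). *Smox*, spermine oxidase, was at 94.6, 94.3, 90.3, 103 and 76.4 CPM in WT-empty and 42.04, 67.2, 44.5, 47.96 and 58.3 CPM in KO-empty, without overlap (log2 fold change -0.82, SE 0.16, q = 0.00142). Without 17KR and 61KR together, *Smox* had a log2 fold change of -0.69 and was not called. *Sms*, spermine synthase, fell (log2 fold change -0.30, SE 0.06, q = 0.00379), and q was 0.0125 without WT-empty 4KR, 0.0135 without WT-empty 49KR, 0.0149 without KO-empty 64KR and 0.0111 without KO-empty 62KR. *Oaz2*, an antizyme that targets ornithine decarboxylase for degradation, was at 78.5, 72.04, 73.8, 76.05 and 77.6 CPM in WT-empty and 107, 112, 111, 106 and 129 CPM in KO-empty. All KO-empty values were higher and 62KR was above the others of its group (log2 fold change 0.58, SE 0.07, q = 4.23e-06). *Sat1*, the acetyltransferase that starts polyamine breakdown, rose from a range of 16.7 to 25.5 CPM in WT-empty to a range of 28.4 to 40.2 CPM in KO-empty (log2 fold change 0.66, SE 0.11, q = 5.35e-04). The enzymes of synthesis *Odc1* (log2 fold change -0.41, q = 0.0406) and *Amd1* (-0.28, q = 0.0801) did not reach the threshold.

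Growth factor and myostatin pathway genes were called in 4 of 19 cases (21.1%, against 4.25% of all genes), 1 higher and 3 lower. Besides *Mstn*, its close relative *Gdf11* fell, at 13.2, 9.31, 14.1, 11.9 and 12.3 CPM in WT-empty and 4.06, 6.93, 5.69, 8.1 and 4.81 CPM in KO-empty. The genotypes did not overlap (log2 fold change -1.04, SE 0.16, q = 1.40e-04). *Acvr2a*, a type 2 receptor for myostatin and activins, fell from a range of 47.7 to 62.4 CPM in WT-empty to a range of 36.1 to 37.97 CPM in KO-empty (log2 fold change -0.55, SE 0.07, q = 7.11e-06). Of the same list, *Acvr2b* (0.07, q = 0.792) and *Inhba* (0.47, q = 0.491) were not called, and the median of the 19 was -0.047. *H19*, an imprinted non-coding RNA of growing muscle, was at 653, 594, 548, 561 and 473 CPM in WT-empty and 1277, 810.0, 1119, 575 and 784 CPM in KO-empty, with 61KR inside the WT-empty range (log2 fold change 0.69, SE 0.16, q = 0.00577), and q was between 0.0112 and 0.0221 when 1 of WT-empty 4KR, 7KR, 35KR and 49KR or KO-empty 17KR and 64KR was left out.

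In complex I, 1 of 36 genes was called (2.78%, against 4.25% of all genes), *Ndufs1* (log2 fold change 0.28, SE 0.07, q = 0.007496), for which q was between 0.0117 and 0.0246 when 1 of WT-empty 14KR, 7KR, 35KR and 49KR or KO-empty 17KR, 33KR, 64KR and 62KR was left out. In complexes II to V, 0 of 42 were called by edgeR, with 34 positive and 8 negative fold changes and a median of 0.124. Over all genes, 8868 of 16987 fold changes were positive. The median member of this list, on the log2 scale relative to the WT-empty mean, was 0.171 in WT-empty 4KR and 0.0162 to 0.316 in KO-empty. Such medians per library overlapped between genotypes for every mitochondrial list of this paragraph. The 7 measured genes of mitochondrial DNA were all above 0 in fold change, with a median of 0.3, and 0 were called. Their summed expression was 19500 ± 1370 CPM in WT-empty and 21400 ± 763 CPM in KO-empty (SD, n = 5 each, exact two-sided permutation test, p = 0.0397, adjusted p = 0.178). In the tricarboxylic acid cycle and pyruvate entry, 2 of 21 genes were called, both higher (9.52%, against 4.25% called among all genes). The median log2 fold change was 0.177, with 19 positive. *Dlst*, the succinyltransferase of the 2-oxoglutarate dehydrogenase complex, was at 199, 204, 191, 191 and 214 CPM in WT-empty and 247, 255, 269, 233 and 266 CPM in KO-empty without overlap (log2 fold change 0.35, SE 0.06, q = 2.80e-04), with q = 0.0102 in the fit of the 2 groups alone, and *Pdhb* of pyruvate dehydrogenase rose by 0.24 (q = 0.00838), although for *Pdhb* q was between 0.0102 and 0.0304 when 1 of WT-empty 14KR, 4KR, 7KR, 35KR and 49KR or KO-empty 64KR, 61KR and 62KR was left out. *Acads*, short-chain acyl-CoA dehydrogenase, was the 1 called gene of 22 (4.55%, against 4.25% of all genes) in fatty acid uptake and oxidation (log2 fold change 0.43, SE 0.08, q = 0.00122), with q = 0.02698 in the fit of the 2 groups alone and 20 of the 22 fold changes above 0.

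Of 16 genes of glycolysis and glucose uptake 2 were called, both lower (12.5%, against 4.25% called among all genes). *Fbp2*, the muscle fructose bisphosphatase, was at 84.6, 77.8, 94, 55.5 and 61.98 CPM in WT-empty and 43.5, 40.5, 46.4, 20.8 and 27.7 CPM in KO-empty. All KO-empty values were lower (log2 fold change -1.06, SE 0.17, q = 3.06e-04). *Slc2a4*, the insulin-responsive glucose transporter GLUT4, fell from a range of 374 to 551 CPM in WT-empty to a range of 296 to 364 CPM in KO-empty (log2 fold change -0.43, SE 0.09, q = 0.00288), and q was 0.0119 without WT-empty 4KR, 0.0125 without WT-empty 7KR and 0.01197 without KO-empty 64KR. The other 14 were not called, and the median of the 16 was 0.0019. *Ppp1r3d*, which targets protein phosphatase 1 to glycogen, fell (log2 fold change -0.62, SE 0.15, q = 0.00781). It was the single called member of 15 genes of glycogen metabolism (6.67%, against 4.25% of all genes). For *Ppp1r3d*, q was just past 0.01 up to 0.0273 when 1 of WT-empty 14KR, 4KR, 7KR, 35KR and 49KR or KO-empty 17KR, 64KR, 61KR and 62KR was left out. *Gamt*, the last enzyme of creatine synthesis, rose from a range of 7.33 to 10.02 CPM in WT-empty to a range of 11.6 to 16.1 CPM in KO-empty (log2 fold change 0.73, SE 0.14, q = 0.00124) and was the 1 called gene of 11 in its list (9.09%, against 4.25% of all genes).

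The pattern used for cytosolic ribosomal protein genes took 97 genes, 9 of them called (9.28%, against 4.25% of all genes), all lower, with a median log2 fold change of -0.128 and 77 negative values. After removal of S6 kinases and 1 binding protein, which code for no ribosomal protein, an alternative chosen after seeing the data, 74 of 87 were negative (8119 of 16987 among all genes), with a median of -0.139 against 0.0126 over all genes. *Rps20* was at 146, 139.8, 118, 106 and 116 CPM in WT-empty and 82.5, 87.3, 86.1, 99.6 and 98.2 CPM in KO-empty, with no overlap (log2 fold change -0.47, SE 0.08, q = 5.44e-04), and in the fit of the 2 groups alone q was 0.0134. *Rpl4* fell by a smaller amount (log2 fold change -0.27, SE 0.05, q = 0.00244), and q was 0.0112 without WT-empty 14KR and 0.0104 without WT-empty 4KR. *Rpl7* did so as well (log2 fold change -0.32, SE 0.07, q = 0.00351), and q was 0.0146 without WT-empty 4KR and 0.0146 without WT-empty 7KR. Among the 87 genes, 2 were called without WT-empty 14KR, 1 without 4KR, 2 without 7KR, 3 without KO-empty 33KR, 4 without 64KR and 3 without 61KR. In the fit of the 2 groups alone 0 were called, 1 was called with library-size scaling in place of TMM and 12 were called by DESeq2. Their summed expression was 6844, 6978, 6228, 5841 and 5853 CPM in WT-empty and 5296, 5469, 5633, 5326 and 6014 CPM in KO-empty, so that KO-empty 62KR lay above WT-empty 35KR and 49KR. This sum was not tested. The mitochondrial ribosome had 1 called gene of 77 (1.3%, against 4.25% of all genes, *Mrpl30*, log2 fold change -0.24) and the proteasome 1 of 47 (2.13%, *Psmd8*, -0.41), with medians of 0.0503 and 0.0554. For *Mrpl30* q was between 0.0138 and 0.0414 when 1 of WT-empty 14KR, 4KR, 7KR and 49KR or KO-empty 17KR, 33KR, 64KR, 61KR and 62KR was left out, and for *Psmd8* q was between 0.0134 and 0.0293 when 1 of WT-empty 14KR, 4KR and 7KR or KO-empty 33KR, 64KR and 62KR was left out.

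Autophagy and lysosome genes gave 1 higher and 1 lower gene of 19 (10.5% called, against 4.25% of all genes). *Ctsl*, cathepsin L, was at 164, 154, 166, 180.3 and 147 CPM in WT-empty and 118, 112, 113, 117 and 119.9 CPM in KO-empty, and the groups were far apart relative to their spread (log2 fold change -0.48, SE 0.07, q = 1.26e-04). *Wipi1*, a protein of forming autophagosomes, rose from a range of 20.9 to 28.7 CPM in WT-empty to a range of 34.5 to 39.2 CPM in KO-empty (log2 fold change 0.52, SE 0.09, q = 4.95e-04). *Fbxo32* was the single called gene of 16 atrophy ligases and FOXO-related genes (6.25%, against 4.25% of all genes). *Hspb3*, a small heat shock protein of muscle, was the 1 called gene of 14 heat shock genes (7.14%, against 4.25% of all genes, log2 fold change 0.33, SE 0.07, q = 0.00374), and q was 0.0108 without WT-empty 49KR and 0.0112 without KO-empty 64KR. Of 9 measured glucocorticoid-responsive genes 2 were called, both lower (22.2%, against 4.25% of all genes, median log2 fold change -0.325). *Fkbp5*, a co-chaperone of steroid receptors, was at 60.5, 80.6, 43.5, 32.1 and 50.7 CPM in WT-empty and 36.6, 23.9, 14.2, 14.1 and 15.9 CPM in KO-empty, with 1 value of each genotype inside the range of the other (log2 fold change -1.35, SE 0.28, q = 0.00349). For *Fkbp5*, q was 0.0149 without WT-empty 4KR, 0.0138 without KO-empty 64KR, 0.0111 without KO-empty 61KR and 0.0117 without KO-empty 62KR. The glucocorticoid receptor *Nr3c1* fell by less (log2 fold change -0.32, SE 0.07, q = 0.00693), and q was between 0.0133 and 0.0261 when 1 of WT-empty 4KR, 7KR, 35KR and 49KR or KO-empty 17KR, 64KR, 61KR and 62KR was left out. *Tsc22d3*, another glucocorticoid target, had a log2 fold change of -0.73 and was not called (q = 0.0237). Of 14 clock genes only *Cry2* was called (7.14%, against 4.25% of all genes, log2 fold change 0.62, SE 0.15, q = 0.007797), and q was between 0.0109 and 0.0298 when 1 of WT-empty 4KR, 7KR, 35KR and 49KR or KO-empty 64KR, 61KR and 62KR was left out.

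Extracellular matrix genes were all positive in fold change, 19 of 19 with a median of 0.245, against 8868 of 16987 positive among all genes. By edgeR 0 of them were called, against 4.25% of all genes. *Col1a1*, type I collagen, was at 153, 84.4, 229.9, 279.7 and 254 CPM in WT-empty and 923, 222, 445, 470.4 and 272 CPM in KO-empty, with the highest value in 17KR and overlapping groups (q = 0.0397). Fibroblast markers (6 of 6 measured, *Dcn* the most abundant, none at 0) summed to 893, 828, 1062, 1027 and 851 CPM in WT-empty and 1600, 818, 1089, 1138 and 940 CPM in KO-empty. This sum includes *Col1a1* itself, and of the other 5 markers *Dcn*, *Dpt*, *Pdgfra* and *Pi16* had negative fold changes (-0.19, -0.16, -0.17 and -0.24, none called). The part of fibroblast content in the matrix values was not tested. Among 9 measured genes of estrogen, thyroid and ERR receptors 0 were called by edgeR (median 0.039), and among 11 immediate early genes 0 (median 0.186). Over all genes, 3969 had an unadjusted p under 0.05.

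The 8 largest increases among called genes with a mean of at least 1 CPM were those of neutrophil granule genes and interferon-inducible genes. Of 14 listed neutrophil granule genes, 8 were in the table. This list was written after several of its genes had been seen, and it is described only. *S100a9*, a subunit of calprotectin, was at 0.243, 0.303, 0.197, 0.229 and 0.0799 CPM in WT-empty and 23.9, 0.756, 0.802, 52.7 and 1.8 CPM in KO-empty. All KO-empty values were above all WT-empty values, but 17KR and 61KR were more than 13-fold above the other 3 KO-empty libraries (log2 fold change 6.25, SE 1.22, q = 0.00178). *S100a8*, the other subunit, followed the same order with 15.5, 0.583, 0.381, 43.8 and 1.07 CPM in KO-empty and 1 WT-empty value inside that range (log2 fold change 6.23, SE 1.29, q = 0.00298). The antimicrobial genes *Camp* (log2 fold change 7.52), *Ltf* (7.33) and *Ngp* (6.42) and the chitinase-like gene *Chil3* (6.60) were near 0 in WT-empty and reached 14.9, 31.4, 23.8 and 15.3 CPM in 61KR. Summed over the 8 genes, expression was 4.26, 2.53, 3.01, 3.64 and 3.24 CPM in WT-empty and 98.8, 4.71, 4.99, 201 and 8.65 CPM in KO-empty. Of the 8 genes, 7 were called, all higher, with all libraries (87.5%, against 4.25% called among all genes), 2 without any 1 of WT-empty 14KR, 4KR, 7KR or 35KR, 1 without WT-empty 49KR, 1 without 61KR and 0 without 17KR and 61KR together. As the list was written from these data, its share is no evidence about these genes as a set. Among the empty libraries, *Camp*, *Ltf*, *Ngp* and *Chil3* were above 0.5 CPM, the level of the filter, only in 17KR and 61KR. With all libraries, DESeq2 and library-size scaling also called 7, and limma-voom and the fit of the 2 groups alone 0. For single genes of this list, q was 0.0105 without WT-empty 4KR, 0.0108 without WT-empty 7KR, 0.0101 without WT-empty 49KR and 0.0107 without KO-empty 61KR for *S100a8*, q was between 0.0104 and 0.0125 when 1 of WT-empty 14KR, 4KR, 35KR and 49KR or KO-empty 61KR was left out for *Camp*, q was between 0.01102 and 0.0182 when 1 of WT-empty 14KR, 4KR, 7KR, 35KR and 49KR or KO-empty 17KR and 61KR was left out for *Ltf*, q was between 0.0114 and 0.01697 when 1 of WT-empty 14KR, 4KR, 7KR, 35KR and 49KR or KO-empty 61KR was left out for *Ngp* and q was between 0.0115 and 0.0181 when 1 of WT-empty 14KR, 4KR, 7KR, 35KR and 49KR or KO-empty 17KR and 61KR was left out for *Chil3*. Without both libraries *S100a9* had a log2 fold change of 2.40 with q = 0.124.

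Interferon-inducible GTPases and their partners were highest in KO-empty 61KR. This list too was written after some of its members had been seen. *Gm4841*, an immunity-related GTPase, was at 10.5, 4.67, 6.81, 7.57 and 5.86 CPM in WT-empty and 7.55, 8.49, 6.31, 2194 and 26.9 CPM in KO-empty. Library 61KR lay above the others by more than 80-fold (log2 fold change 5.99, SE 1.25, q = 0.003297). The guanylate-binding protein *Gbp10* was at 0.791, 0.583, 0.882, 167 and 1.85 CPM in KO-empty (log2 fold change 5.62, SE 1.25, q = 0.00522). Over 22 genes, summed expression was 251, 192, 250, 244 and 268 CPM in WT-empty and 251, 280, 333, 8861 and 357 CPM in KO-empty, with 33KR, 64KR and 62KR also above the WT-empty maximum. *F830016B08Rik*, the most abundant member, was above all WT-empty values (70.7, 43.2, 51.7, 56.96 and 54.2 CPM) in each KO-empty library (81.9, 123, 82.05, 1836 and 104 CPM) and was called with all libraries (log2 fold change 3.01, SE 0.65, q = 0.00437). With all libraries 7 of the 22 were called, all higher (31.8%, against 4.25% called among all genes), 11 without 17KR, 11 without 33KR, 2 without WT-empty 14KR, 1 without 4KR, 1 without 35KR, 0 without 7KR and 0 without 49KR. As the list was written from these data, this share is a description only. Without 61KR, 0 of the 22 were called by edgeR, with a log2 fold change of 0.80 (q = 0.213) for *Gm4841* and 0.55 (q = 0.553) for *Gbp10*. For *Gm4841* q was 0.0117 without WT-empty 4KR, 0.0111 without WT-empty 7KR, 0.0106 without WT-empty 49KR and 0.213 without KO-empty 61KR, and for *Gbp10* q was between 0.0142 and 0.553 when 1 of WT-empty 14KR, 7KR, 35KR and 49KR or KO-empty 61KR was left out. With all libraries, library-size scaling called 6 of the 22, and limma-voom and the fit of the 2 groups alone 0. DESeq2 gave no q for 15 of the 22, *Gm4841* and *Gbp10* among them, and called 0 of the other 7. Library 61KR also had the highest KO-empty sums of macrophage markers (7 of 7 measured, *Mrc1* the most abundant, none at 0), at 125, 94.2, 131, 196 and 116 CPM in KO-empty, and of erythroid markers (5 of 5 measured, *Hbb-bs* the most abundant, none at 0), at 281, 99.9, 168, 704 and 158 CPM. The part of other cell types or of the state of this mouse in these values was not tested.

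**Figure D3:**
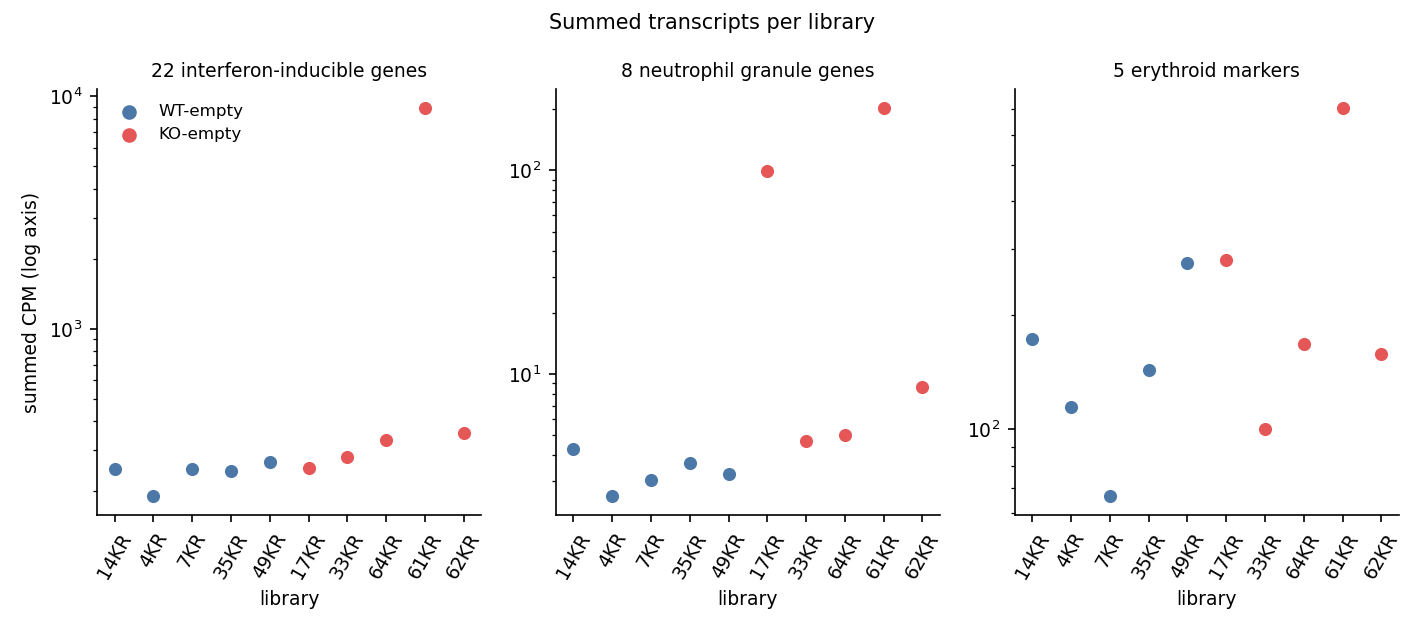
Summed CPM (log y axes) of 22 interferon-inducible genes, 8 neutrophil granule genes and 5 erythroid markers in each WT-empty (blue) and KO-empty (red) library. The interferon-inducible sum was 8861 CPM in 61KR and at most 357 CPM in any other library, and the neutrophil sum was 201 CPM in 61KR and 98.8 CPM in 17KR.

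Because these genes moved together in 61KR, their promoters were searched for the γ-interferon activated sequence, TTCNNNGAA, which reads the same on both strands. RefSeq promoters of 300 bases on GRCm38.p6 were found for 13 of the 22 genes. Of the 15 promoters of these genes 6 held the sequence, as did 8.3% of 32851 promoters in the table. The list was written after some members had been seen, so these shares are not a test. A match was held by *Igtp*, which was called, and by *Gbp5*, *Gbp7*, *Irf1*, *Irgm2* and *Psmb8*, which were not. The promoter of *Cxcl9*, also called, had 0 matches. For the called genes *Gm4841*, *F830016B08Rik*, *Iigp1*, *Gbp10* and *Gbp6* no promoter was found. A match describes these letters and is not a binding site. *Igtp* (chr11:58199306-58199605, + strand), which was at 10.2 to 14.1 CPM in WT-empty and at 9.86, 10.99, 15.5, 807 and 23.8 CPM in KO-empty, and *Gbp5* (chr3:142496684-142496983, + strand), which was not called (q = 0.0609), are shown as examples of a promoter with 1 match and with 2 matches, in capitals.
Igtp: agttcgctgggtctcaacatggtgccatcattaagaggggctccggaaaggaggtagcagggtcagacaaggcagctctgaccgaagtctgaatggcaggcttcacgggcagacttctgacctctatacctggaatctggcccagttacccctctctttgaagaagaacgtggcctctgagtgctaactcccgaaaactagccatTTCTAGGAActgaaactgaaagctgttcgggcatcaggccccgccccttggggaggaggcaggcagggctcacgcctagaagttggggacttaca
Gbp5: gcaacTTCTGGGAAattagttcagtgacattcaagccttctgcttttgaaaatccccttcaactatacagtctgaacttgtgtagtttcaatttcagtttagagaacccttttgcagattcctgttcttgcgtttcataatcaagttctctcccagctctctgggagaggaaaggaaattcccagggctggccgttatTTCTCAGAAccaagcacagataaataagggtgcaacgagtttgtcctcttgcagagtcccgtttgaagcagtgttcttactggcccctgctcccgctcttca

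Among summed markers of cell types the smallest adjusted p was 0.178. The smallest p that the exact permutation test could give was 0.00794, before adjustment over 16 values. These adjusted p therefore do not show that sums were alike. Skeletal muscle fiber markers summed to 160300, 167900, 174200, 148000 and 164900 CPM in WT-empty and 138600, 150100, 141300, 123200 and 144600 CPM in KO-empty, a lower mean (exact two-sided permutation test, p = 0.0159, adjusted p = 0.178), and *Tnnt3* was the 1 called gene of 10 (against 4.25% of all genes). Lymphocyte markers (2 of 6 measured, *Ighm* with nearly all of the sum) summed to 60.96, 84.2, 104, 93.5 and 64.7 CPM in WT-empty and 29.9, 49.9, 49.7, 67.7 and 60.1 CPM in KO-empty (p = 0.0317 by the same exact test, adjusted p = 0.178). *Ighm* had a log2 fold change of -0.68 and *Cd3e* of 0.27, neither called. Satellite cell markers were at 37.0 ± 3.9 CPM in WT-empty and 43.6 ± 4.25 CPM in KO-empty (SD, n = 5 each, exact test p = 0.0556, adjusted p = 0.178). Brown adipocyte markers were highest in KO-empty 64KR, at 58.5 CPM, and lowest in WT-empty 7KR, at 1.999 CPM, and white adipocyte markers ranged from 470 to 1070 CPM in WT-empty and from 574 to 1031 CPM in KO-empty. Other exact tests gave p = 0.294 for endothelium, 0.611 for smooth muscle and pericytes, 0.222 for fibroblasts, 0.317 for tendon, 0.317 for Schwann cells, 0.5 for macrophages, 0.325 for erythroid cells, 0.556 for white adipocytes and 0.587 for brown adipocytes. Cartilage and bone markers (2 of 5 measured, *Col2a1* the most abundant) had means of 0.402 CPM in WT-empty and 5.6 CPM in KO-empty (exact test p = 0.0476, adjusted p = 0.178), with 22.2 CPM in 61KR and at most 3.51 CPM in any other library, and 1 of 4 keratinocyte markers was measured, below 2 CPM in all libraries. The part of these cells in the gene differences was not tested.

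The neighbors of *Actn3* on chromosome 19 were looked at as a group. In gene order on GRCm38, 20 genes tested on each side were taken, an alternative chosen after seeing that the files use another build. Of these 40, 1 was higher, 2 were lower and 37 were not called (against 4.25% called among all genes, median log2 fold change 0.0573). *Grk2*, the kinase that desensitizes G protein-coupled receptors, 17 genes from *Actn3*, was at 43.1, 44.5, 86.7, 41.8 and 46.8 CPM in WT-empty and 103, 111, 109, 103 and 119.7 CPM in KO-empty. The WT-empty library 7KR was about 2-fold above the other WT-empty libraries and still below all KO-empty libraries (log2 fold change 1.05, SE 0.19, q = 7.24e-04). *Rce1*, a protease that trims prenylated proteins, 10 genes away, fell (log2 fold change -0.72, SE 0.16, q = 0.00453), and *Gm21992*, 7 genes away, fell at a low level of 0.477 to 1.12 CPM in WT-empty (log2 fold change -1.26, SE 0.26, q = 0.003297). *Grk2* was higher in KO in the other comparisons as well, with log2 fold changes of 1.30 with DHT and 1.57 in sham-operated males. *Rce1* (-0.16, q = 0.502, and -0.21, q = 0.236) and *Gm21992* (-0.17, q = 0.683, and -0.48, q = 0.144) were called in neither. The sequence around the targeted gene was not tested.

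The genotype difference was also measured in other mice, with DHT implants. KO-DHT and WT-DHT shared no mouse with the empty groups and differed in 1978 genes (11.6% of those tested), 872 higher (5.13%) and 1106 lower (6.51%). This split turned with library-size scaling in place of TMM, where 65.3% of 1982 called genes were higher, against 44.1%. Of the 722 genes called with empty implants, 428 were also called with DHT, which is 59.3% of the empty calls and 21.6% of the DHT calls. In 419 of the 428 the direction was the same, 148 higher and 271 lower in KO, and 661 of the 722 had the same sign whether called or not. The test of whether the genotype difference itself differed between DHT and empty implants called 550 genes at q ≤ 0.05 (3.24%), 116 of them among the 722. *Actn2* had log2 fold changes of 0.64 and 0.65 with empty and DHT implants, *Pla2g7* of -1.73 and -1.82, and *Oaz2* of 0.58 and 0.59, and for these 3 genes the difference was not called.

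**Figure D4:**
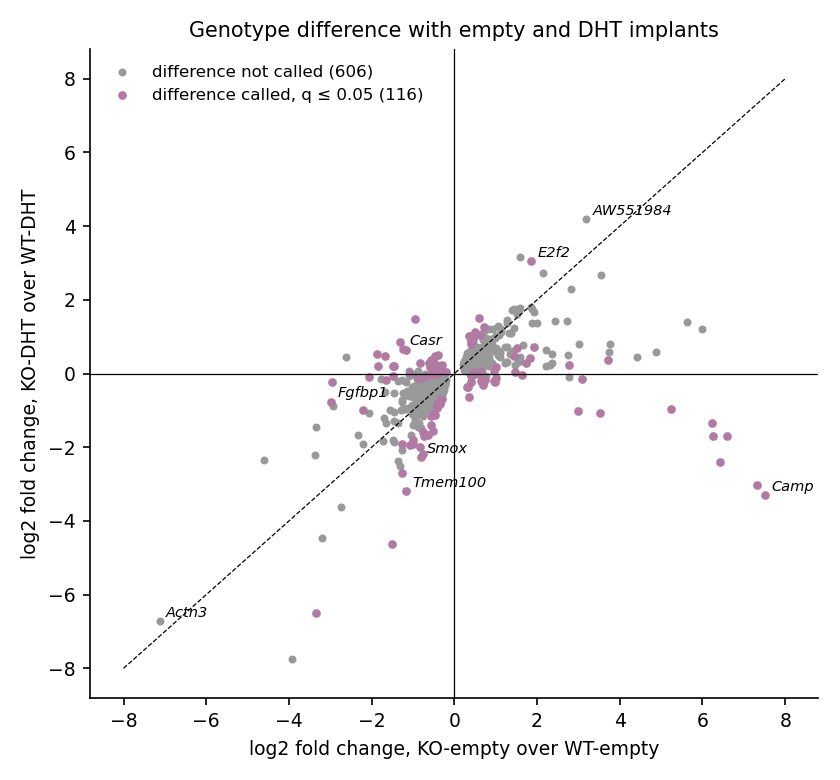
Log2 fold change of KO over WT with empty implants (x axis) and with DHT implants (y axis) for the 722 genes called with empty implants, 1 point per gene, with the dashed line where the values are equal. For 116 genes in purple the 2 values differed by the interaction test at q ≤ 0.05, among them *Fgfbp1*, *Casr*, *Smox* and *Tmem100*.

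For some genes the genotype difference was smaller or absent with DHT. *Fgfbp1* was at 0.721, 0.785 and 0.849 CPM (lowest, median and highest) in WT-DHT and 0.201, 0.4402 and 0.658 CPM in KO-DHT, and its genotype log2 fold change went from -2.99 to -0.76 (difference 2.23, SE 0.33, q = 1.74e-04). *B230312C02Rik*, lower in KO-empty, was at 13.5, 13.98 and 16.7 CPM in WT-DHT and 11.1, 13.6 and 14.5 CPM in KO-DHT (difference 1.46, q = 3.74e-05). *Ift122*, higher in KO-empty, was at 18.6, 32.01 and 37.2 CPM in WT-DHT and 29.9, 35.3 and 43.6 CPM in KO-DHT (difference -1.46, q = 1.18e-04). *Casr* changed sign, with 3.06, 3.45 and 3.93 CPM in WT-DHT and 4.79, 5.58 and 6.01 CPM in KO-DHT, where the genotype log2 fold change was 0.65 (difference 1.88, SE 0.17, q = 1.21e-07).

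Other genes differed more between the genotypes with DHT. *Smox* was at 599, 762 and 1009 CPM in WT-DHT and 118, 153 and 229 CPM in KO-DHT, a log2 fold change of -2.27 (difference -1.45, SE 0.21, q = 1.21e-04). *Tmem100* was at 62.6, 76.03 and 104 CPM in WT-DHT and 5.005, 7.13 and 14.7 CPM in KO-DHT (log2 fold change -3.20, difference -2.02, q = 5.53e-04). *Itpr1* (difference -0.82, q = 2.95e-06), *Spns2*, a transporter of sphingosine 1-phosphate (-1.05, q = 1.12e-04), *Musk* (-0.97, q = 0.001304), *Mstn* (-0.80, q = 0.0177) and *Fbp2* (-0.87, q = 0.0372) were lower in KO with empty implants and lower still with DHT. *Spns2*, *Itpr1* and *Ttll7*, a tubulin polyglutamylase, were the 3 called genes of 8 (37.5%, against 4.25% of all genes) that the study names for interactions in both experiments, a choice made with these libraries among its data. For *Ttll7*, q was between 0.0122 and 0.0193 when 1 of WT-empty 14KR, 4KR, 7KR and 49KR or KO-empty 64KR, 61KR and 62KR was left out. *E2f2* was higher in KO with empty implants and more so with DHT (difference 1.20, q = 0.00674).

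In male gastrocnemius after a sham operation, 928 of 17514 genes were called between KO-sham and WT-sham (5.30%), 434 higher (2.48%) and 494 lower (2.82%). The tables were scaled and fitted separately, and muscle, sex, age and operation differ along with the table, so values are given side by side and no difference was tested. Of the 722 genes, 707 were in that table, and 257 were called in both, 256 in the same direction. Of the genes called in females with empty implants, 218 were called in the same direction also with DHT and in sham-operated males. *Actn3* was lower with a log2 fold change of -7.18. *Pla2g7* (log2 fold change -1.99, q = 1.50e-10), *Ybx3* (-0.88, q = 5.77e-12), *Gdf11* (-1.24, q = 3.49e-10), *E2f2* (1.92, q = 5.77e-12) and *Tceal7* (2.03, q = 8.30e-09) were called there in the direction of the empty comparison. *Fgfbp1* (-0.56, q = 0.171), *Casr* (0.15, q = 0.713), *Ctsl* (-0.02, q = 0.907), *Cryab* (0.21, q = 0.163) and *Actn2* (0.29, q = 0.0759) were not called there.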

How the data were processed

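Counts of reads per gene deposited by the authors for RNA of mouse muscle were used as they stand, made from a stranded total RNA kit. Per the submitters' processing notes, reads were aligned with STAR 2.7.1b to GRCm39, handled with SAMtools 1.9 and Picard 2.20.2, and counted with featureCounts in Subread 2.0.0. Whether counting used the strand is not stated, so genes that overlap a gene on the opposite strand are uncertain. Among those named, the partner was itself among the genes tested for *Acvr2a*, *Cry2*, *Cryab*, *Enho*, *Fbxo32*, *Itpr1*, *Kcnab1*, *Ndufs1*, *Pla2g7*, *Slc25a25*, *Sorbs2*, *Spns2*, *Tceal7* and *Tnnc2*. For *A930003A15Rik*, *Ctsl*, *H19*, *Itga7* and *Nos1* the partner on the opposite strand was not among them. Near-identical copies such as *Gbp* genes, *Rps3a2* and hemoglobins are uncertain as well. Symbols, gene order and exon overlaps came from GENCODE M21 (GRCm38), which held 16920 of 16987 gene IDs and not the other 67. Since builds differ, its gene coordinates are not printed. The coordinates given with the promoters are RefSeq positions on GRCm38.p6 and not on GRCm39, the build used for alignment.

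All 22 spinalis libraries were fitted together by group in edgeR 4.0.16 (R 4.3.3) with TMM scaling and quasi-likelihood F tests, and sham-operated groups were fitted in their own table. The filter (0.5 CPM in 2 libraries) removed 0 genes. Alternatives used DESeq2 1.42.0 and limma 3.58.1, and tables and figures Python 3.11.15, pandas 2.3.3 and matplotlib 3.10.9. The tests were tested on simulated data. The members and lists were chosen with earlier results of these data known. Genes were named by rule: *Actn3*, the 14 smallest p in each direction among genes with q ≤ 0.01 and groups that do not overlap, the 8 largest called folds in each direction with a mean of at least 1 CPM, and up to 6 called members per list. Called genes within 5 Mb of *Actn3* could not be placed on the build used, and 20 genes on each side were taken instead. Other genes given as values, such as *Grk2*, *Rce1* and *Gm21992*, were chosen after their values were seen. Some genes that the rule names are not reported here.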

Additional observations from a re-analysis of the deposited data

Results flagged for a closer look

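Within the groups of 5, 206 sets of values were looked at for 1 value far from the other 4 by a Dixon test that picks about 1 set in 20 by chance, and 9 were found, 5 in KO-empty, 3 of those in 61KR, and 4 in WT-empty. Among them were *Pld5* in WT-empty 7KR (4.54 CPM, nearest other 3.53, far end 3.23), *Oaz2* in KO-empty 62KR (129 CPM, nearest other 112, far end 106), *S100a8* in WT-empty 14KR (0.431 CPM, nearest other 0.134, far end 0.0494), *Gm4841* in KO-empty 61KR (2190 CPM, nearest other 26.9, far end 6.31) and *Gbp10* in KO-empty 61KR (167 CPM, nearest other 1.85, far end 0.583). The others were *Ttll7* in WT-empty 35KR (211 CPM, nearest other 245, far end 258), *Nr3c1* in WT-empty 14KR (196 CPM, nearest other 248, far end 265), summed brown adipocyte markers in KO-empty 64KR (58.5 CPM, nearest other 18.8, far end 7.82) and summed cartilage and bone markers in KO-empty 61KR (22.2 CPM, nearest other 3.51, far end 0.237).

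In 29 of the 89 named genes the genotype difference with DHT minus that with empty implants passed the interaction test at q ≤ 0.05, against 3.24% of all genes. All 89 were genes called with empty implants, and that difference enters the value tested. Given as this difference on the log2 scale, with the empty and then the DHT fold change in brackets, the values were those of *Fgfbp1* 2.23 (-2.99, -0.76), *A930003A15Rik* -1.42 (1.83, 0.41), *B230312C02Rik* 1.46 (-1.64, -0.18), *Kcnab1* 1.24 (-2.22, -0.98), *Ift122* -1.46 (1.74, 0.29), *Gdap1* -0.66 (-1.26, -1.92), *E2f2* 1.20 (1.86, 3.06) and *Casr* 1.88 (-1.23, 0.65). Next came *Dupd1* -0.83 (1.52, 0.69), *Itpr1* -0.82 (-0.57, -1.39), *Chrnb1* 0.41 (0.63, 1.04), *Mstn* -0.80 (-0.99, -1.79), *Ctsl* 0.46 (-0.48, -0.02), *Fbp2* -0.87 (-1.06, -1.93), *Spns2* -1.05 (-0.63, -1.68) and *Musk* -0.97 (-0.72, -1.69). Further values were those of *Smox* -1.45 (-0.82, -2.27), *S100a9* -7.93 (6.25, -1.69), *S100a8* -7.57 (6.23, -1.35), *Camp* -10.81 (7.52, -3.29), *Tmem100* -2.02 (-1.18, -3.20), *Sms* -0.38 (-0.30, -0.68), *Ngp* -8.83 (6.42, -2.41) and *Ttll7* -0.64 (-0.47, -1.11). The remaining values were those of *Chil3* -8.28 (6.60, -1.68), *Ltf* -10.34 (7.33, -3.01), *H19* -1.01 (0.69, -0.32), *Psmd8* -0.51 (-0.41, -0.92) and *Ppp1r3d* 0.89 (-0.62, 0.28). For the neutrophil granule genes the empty fold change rests on KO-empty 17KR and 61KR. Without both it was 2.77 for *Camp*, 0.91 for *Ltf*, 1.15 for *Ngp*, 1.02 for *Chil3*, 2.04 for *S100a8* and 2.40 for *S100a9*, none of them called, and the difference from DHT was not refitted gene by gene without them.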

How the results depend on the processing

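Of the 89 named genes, 0 changed direction under any alternative, 55 stayed at q ≤ 0.01 in all 10 fits that left out 1 library, 34 did not in at least 1, and 46 stayed in every alternative. Of the values of named genes under alternatives, 264 did not stay on their side of the threshold, and 1336 are entered as having stayed, among them *Gm4841* and *Gbp10* under DESeq2, which gave no q for them. The 1336 also include settings that could not end a call. The fit without a filter repeated the main fit, since the filter removed 0 genes. The threshold of 0.05 was applied to the main q of genes already at q ≤ 0.01. For counts that changed, the cause was not tested. KO-empty against WT-empty gave 722 called genes, 1557 at a threshold of 0.05, 1057 with DESeq2 (714 shared), 672 with limma-voom (643 shared), 722 without a filter, 720 among genes with a mean of at least 1 CPM, 289 with only the groups compared (281 shared) and 533 with library-size scaling, where 52.9% were higher against 41.3%. Leaving out 1 library gave 450 to 692, the lowest being 450 without WT-empty 7KR, 453 without KO-empty 64KR and 481 without WT-empty 4KR. Without KO-empty 17KR and 61KR together, chosen after seeing the data, 408 were called (381 shared).

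KO-DHT against WT-DHT gave 3170 at 0.05, 2386 with DESeq2, 2025 with limma-voom, 1982 with library-size scaling (65.3% higher against 44.1%) and 1594 to 1904 without 1 library. The difference of differences gave 273 at 0.01, 767 with DESeq2, 514 with limma-voom, 515 with library-size scaling (55.1% higher against 41.5%) and 430 to 658 without 1 library. KO-sham against WT-sham gave 1838 at 0.05, 1290 with DESeq2, 930 with limma-voom, 772 with only the groups compared, 722 with library-size scaling (38.5% higher against 46.8%) and 690 to 954 without 1 library.

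With a block for replicate number in the sham groups, 921 were called (833 shared), and the correlations of KO-sham and WT-sham libraries with the same number were 0.0414, -0.0392, 0.0385, 0.134, 0.188 and 0.0127. No paired analysis was possible because the columns of the spinalis table carry codes and no replicate numbers. With 5 libraries per group, small differences in variable genes may have been missed, and genes of few counts have wide errors.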
